A study of Mus musculus with 2 samples.

Results

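The genes C1qa, C1qb, C1qc, C3, C4b, Cfb, Cfp, C3ar1 and C5ar1 were described in single cells of MC38 tumors as a set of complement genes, 9 of the 32285 features counted. They were chosen by symbol alone, each symbol named 1 feature, and all 9 had unique molecular identifiers (UMIs, tags that count RNA molecules), from 6283 for Cfp to 222693 for C1qa over both libraries. MC38 is a mouse colon carcinoma cell line that was grown as a subcutaneous tumor. Mice in 1 group received MSA-2, a small-molecule agonist of the innate immune sensor STING, by 3 intratumoral injections at intervals of 3 days. Tumors of the other group carry the label untreated and negative control, and the series' design gives them as injected with vehicle, saline that contained DMSO. Each group was 1 library of single cells, made from material of 3 mice or samples pooled, so nothing was replicated. The methods give C57BL/6 mice of both sexes for MC38 tumors, the labels give neither strain, sex nor age, and pooling means that no value can be traced to an animal. All intervals in what follows are exact 95% intervals that cover counting error only, and no difference between the libraries could be tested.

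Complement is a cascade of plasma proteins that marks microbes, dying cells and immune complexes for uptake or lysis. The classical route starts with C1q, a recognition molecule built from the chains that C1qa, C1qb and C1qc encode, and then uses C4 to form an enzyme that cleaves C3. The alternative route amplifies C3 cleavage with factor B, encoded by Cfb, and is stabilised by properdin, encoded by Cfp. The fragments released on the way, C3a and C5a, act on the receptors encoded by C3ar1 and C5ar1. The liver makes most of the circulating components, while in tissues macrophages are the main source of C1q, and fibroblasts and other stromal cells make C3, C4 and factor B under inflammatory signals.

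After filtering and removal of called doublets, 13334 cells from the untreated and 13393 cells from the MSA-2 library remained, with a median of 8298.5 and 9271 UMIs per cell. Both libraries shared 53 cell barcodes. The cells were sorted before loading, and the methods call them immune cells, whereas the label for cell type is tumor cells. Macrophage-like cells numbered 2702 and 1086, Ly6c2-type monocyte-like cells 999 and 493, neutrophil-like cells 60 and 2647, NK/T-like cells 1522 and 300, fibroblast-like cells 201 and 699 and endothelial-like cells 62 and 84, each in the order untreated, MSA-2. Stromal cells are the fibroblast-like, endothelial-like and few pericyte-like cells together. A further 6593 and 7049 cells had almost no Ptprc (CD45, the common leukocyte antigen) and scored low for all marker lists, and they are called Ptprc-low here. MC38 cells would be looked for in this class, but the epithelial markers by which tumor cells were to be named were near 0: summed over 12 markers they reached 26.2 CPM (UMIs of a gene scaled to 1000000 UMIs of its class) in the untreated cells and 10.4 CPM after MSA-2, of which Krt14 gave 22.5 and 7.64 CPM. The 10 fibroblast markers summed to 2376 and 2799 CPM there, against 54702 and 28032 CPM in fibroblast-like cells. The label of tumor cells is therefore not backed by its markers in this class. Sorting and dissociation can set how many cells of each class were loaded.

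The neutrophil comparison rested on the 60 untreated cells with a median of 1299 UMIs, against 1795 in the MSA-2 cells. The 12 neutrophil markers, 1 of them at 0 in the untreated cells, summed to 13832.5 CPM in the untreated library and 102799 CPM with MSA-2, and the 10 macrophage markers to 10213 and 323 CPM. The Ly6c2-type monocyte-like cells came from different clusters in each library. The cluster led by Ly6i, Atp2b4 and Ccr2 held 990 untreated and 29 MSA-2 cells, and the cluster led by Ifna2, Chil3 and Il6 held 9 and 464.

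The C1q chains were macrophage genes in both libraries. C1qa stood at 7139 CPM (95% interval 7099 to 7179) in untreated as against 5332 CPM (5274 to 5392) in MSA-2 macrophage-like cells. The C1qb level was 5725 CPM in the untreated library and 3858 CPM with MSA-2, and that of C1qc was 3759 and 2408 CPM. All 3 chains were thus lower after MSA-2, by 0.42, 0.57 and 0.64 on the log2 scale. These differences lay outside counting error but short of 2-fold. Other macrophage RNAs of the class went both ways. Apoe (25084 and 15738 CPM), Adgre1 (266 and 159 CPM) and Ms4a7 (892 and 739 CPM) were lower after MSA-2, and Mrc1 was higher (240 and 386 CPM). The 10 macrophage markers summed to 29365 CPM in the untreated library and 20938 CPM with MSA-2. Most of this was Apoe, and without it the sum was higher after MSA-2, at 4281 and 5201 CPM. Of the 9 genes, 1 (Cfp) was past 2-fold higher and 0 past 2-fold lower in macrophage-like cells, where 6.31% and 5.11% of the 11198 features with at least 50 UMIs were past 2-fold in these directions. The median log2 ratio was 0.19 for the 9 genes and -0.14 for all those features. The order of the chains, C1qa above C1qb above C1qc, was the same in both libraries.

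**Figure D1:**
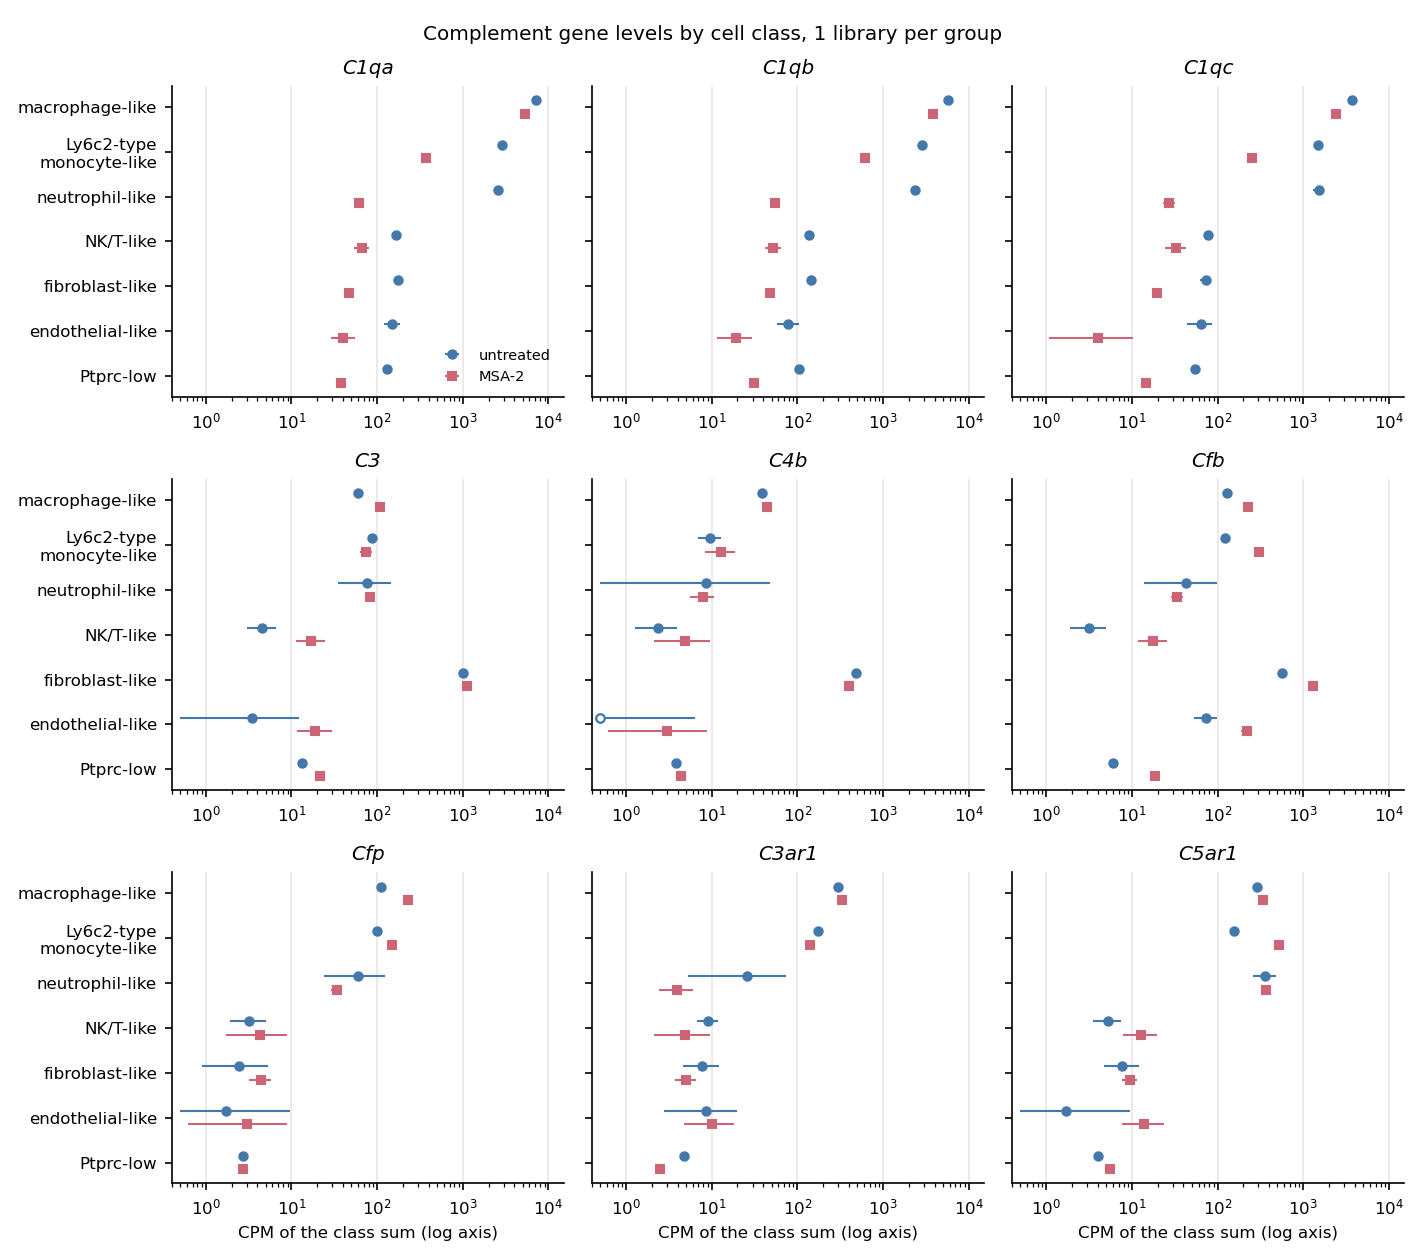
Level of each complement gene in 7 cell classes, as CPM of the summed UMIs of the class on a log axis, for the untreated (circles) and MSA-2 (squares) library. Bars are exact 95% Poisson intervals, and an open symbol marks a class at 0 UMIs drawn at 0.5 CPM. The C1q chains peak in macrophage-like cells, C3, C4b and Cfb in fibroblast-like cells, and C5ar1 is spread over 3 myeloid classes.

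C1qa, C1qb and C1qc lie next to each other on chromosome 4, all on the minus strand: C1qa at 136895917 to 136898803, C1qc at 136889804 to 136893065 and C1qb at 136880129 to 136886187 (mm10, GENCODE M21). Because the levels of these neighbours differed in the same direction, the 250 bases before the start of C1qb (chr4:136886201-136886450) are shown, with those of C3 (chr17:57228137-57228386), whose cells and direction differ. Both windows are on the minus strand of GRCm38.p6, come from RefSeq, and read 5′ to 3′. They hold no match to the motifs searched, so no base is in capitals.
C1qb: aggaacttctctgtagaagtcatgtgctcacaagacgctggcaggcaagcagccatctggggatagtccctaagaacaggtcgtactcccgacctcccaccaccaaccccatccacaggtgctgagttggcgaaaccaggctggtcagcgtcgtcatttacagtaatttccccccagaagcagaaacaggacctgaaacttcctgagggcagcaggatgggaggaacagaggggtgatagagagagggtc
C3: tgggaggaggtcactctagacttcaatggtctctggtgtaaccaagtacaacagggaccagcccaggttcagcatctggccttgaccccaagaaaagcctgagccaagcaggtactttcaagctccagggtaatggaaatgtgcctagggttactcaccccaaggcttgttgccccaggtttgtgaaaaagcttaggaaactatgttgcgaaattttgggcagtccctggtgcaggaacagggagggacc

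The windows were searched on both strands for the interferon-stimulated response element (GAAA, any 2 bases, GAAA), the interferon gamma-activated site (TTCNNNGAA) and the NF-kB motif. Among the 6 members with a window in the table (C1qb, C1qc, C3, Cfp, C3ar1 and C5ar1), 1 match was found, the letters GGGGCTCTCC of the NF-kB motif in C1qc (chr4:136892946-136892955), from position -41 to -32 before the RefSeq start. GENCODE places that start further upstream, and by its models these letters lie in an untranslated exon of C1qc, so the window of C1qc is not shown. Of all 32851 windows of this length, 2.98%, 7.02% and 7.25% hold these motifs in the order given. A match is a description of letters, not of a site in use. C1qa, C4b and Cfb had no window in the table.

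Thinning every cell to 1500 UMIs put the cells on 1 depth. In the untreated library 0.89% of 2696 macrophage-like cells then had no UMI of any C1q chain and 95.3% had all 3. In the MSA-2 library 96 of 1067 cells had none, 9.0%, and 75.2% had all 3. The median cell held 25 C1q UMIs in the untreated library and 15 with MSA-2. The 10th percentile was 11 UMIs in untreated and 1 UMI in MSA-2 cells, and the 90th percentile was 39 and 31.

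**Figure D2:**
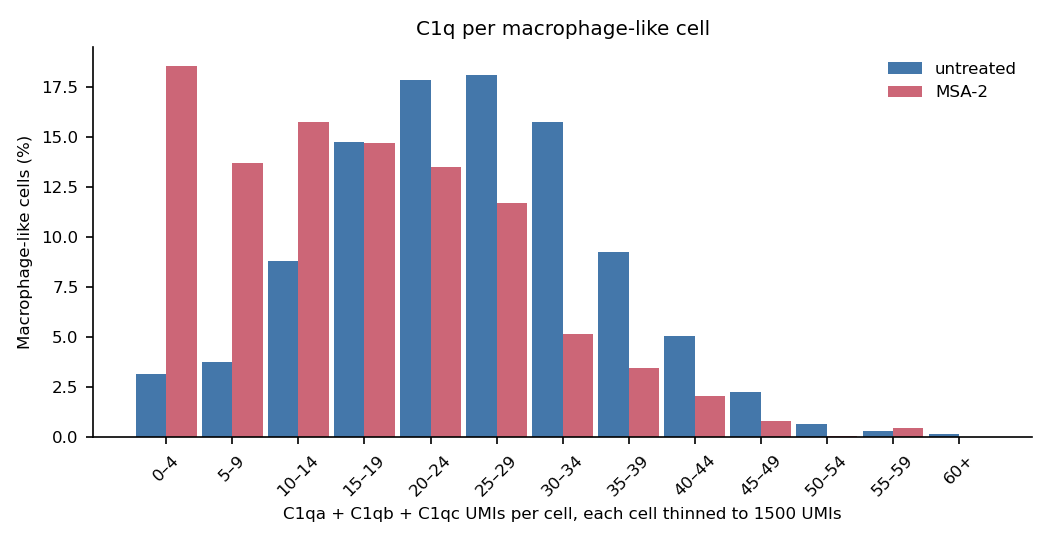
Share of macrophage-like cells (%) by the number of C1qa, C1qb and C1qc UMIs per cell, each cell thinned to 1500 UMIs, for 2696 untreated and 1067 MSA-2 cells. Cells with 0 to 4 C1q UMIs made up 3.15% of all such cells without and 18.6% with MSA-2.

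The macrophage-like clusters differed from each other by more than the libraries did. In the untreated library C1qa ranged from 3252 CPM in the cluster led by Mmp12, Il7r and Gpnmb to 10544 CPM in the one led by Gm26917, Cx3cr1 and Gatm. The Mmp12 cluster was also the lowest after MSA-2, at 1231 CPM. There the C1q chains together stood 1.39 lower on the log2 scale in the MSA-2 library, and 35.8% of its 148 thinned cells had no C1q UMI, against 9.23% of 195 untreated cells. In the cluster led by Cbr2, Folr2 and Lyve1, genes of resident macrophages, the summed chains were 12483 CPM in the untreated library and 12127 CPM with MSA-2, a log2 ratio of -0.04 (-0.08 to -0.00). Among the 5 clusters with at least 50 cells in each library, C1qb and C1qc were lower after MSA-2 in 5 and C1qa in 4, the exception being the Folr2 cluster at 5567 and 5921 CPM. The make-up of the class also differed: the Folr2 cluster was 3.07% of untreated and 24.0% of MSA-2 macrophage-like cells, and the cluster led by Acsl1, Negr1 and Hspa1a 41.7% and 20.2%. With cluster sizes held at their untreated shares, the log2 ratio of the summed chains was -0.25, against -0.52 for the class as it stood.

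**Figure D3:**
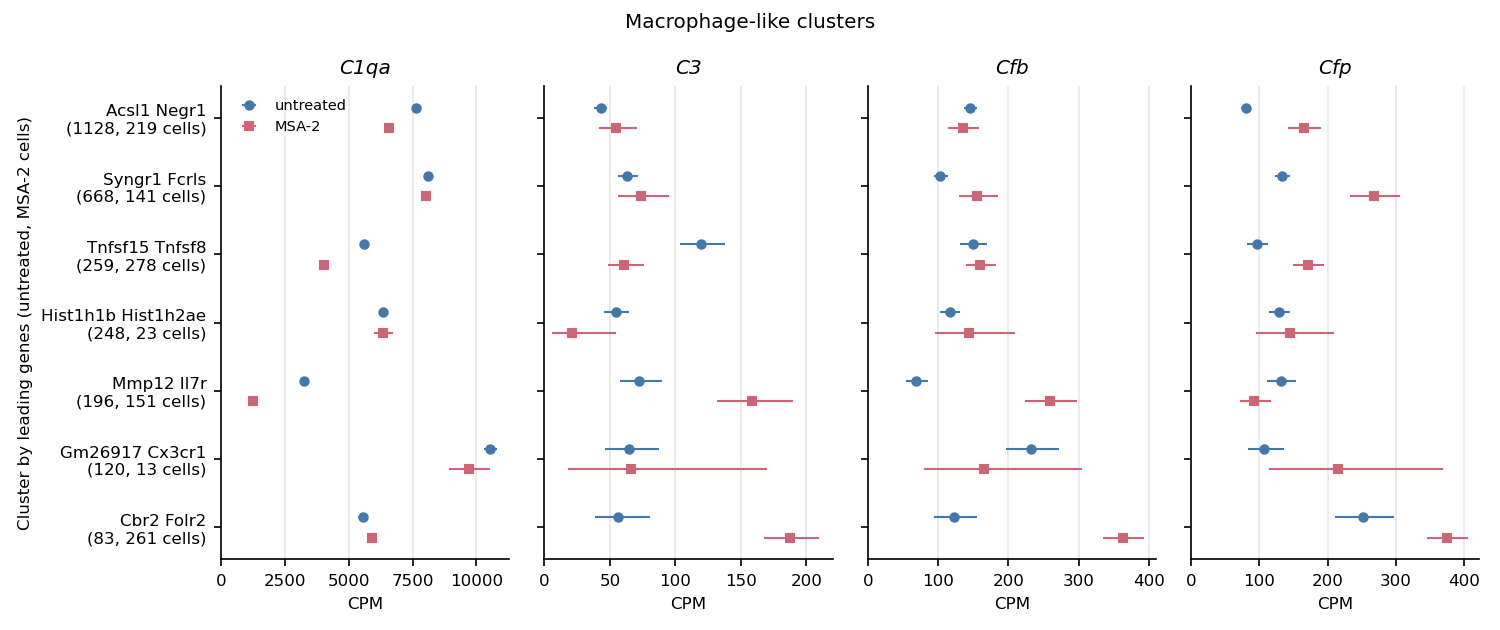
CPM of C1qa, C3, Cfb and Cfp in each macrophage-like cluster, named by leading genes, for the untreated (circles) and MSA-2 (squares) library, with exact 95% Poisson bars and the numbers of cells in brackets. C1qa is lowest in the Mmp12 cluster, and C3, Cfb and Cfp are highest in the MSA-2 cells of the Folr2 cluster.

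Ly6c2-type monocyte-like cells carried less C1q after MSA-2. Their C1qa level was 2901 CPM in the untreated library and 369 CPM with MSA-2, that of C1qb 2851 and 613 CPM, and that of C1qc 1504 and 251 CPM. The log2 ratios were -2.97, -2.22 and -2.58. The libraries were compared across different clusters here, and within the Ly6i cluster alone the summed chains were 7282 and 1771 CPM, a log2 ratio of -2.04. The ratio of the class was -2.56 and depended on how cells were assigned to it, with -0.97 without the cell filter, where the class held 421 and 555 cells. Other macrophage RNAs were lower too, with Apoe at 11350 and 1407 CPM, Ms4a7 at 282 and 59.5 CPM and Adgre1 at 106 and 41.4 CPM, and C1qa stood at 25.6 and 26.2 UMIs per 100 of Apoe. The part of macrophage RNA in this difference was not tested. Of the 9 genes 3 were past 2-fold lower (C1qa, C1qb and C1qc) and 2 higher (Cfb and C5ar1), against 13.2% and 9.74% of 8113 features. The chain proportions differed too. C1qb was 39.3% of the C1q UMIs in untreated and 49.7% in MSA-2 monocyte-like cells, while in macrophage-like cells it was 34.4% and 33.3%.

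Outside the monocytes and macrophages, C1q was low and similar in NK/T-like, fibroblast-like, endothelial-like and Ptprc-low cells. In the untreated library NK/T-like cells had 165 CPM of C1qa, fibroblast-like cells 176, endothelial-like cells 151 and Ptprc-low cells 131. In the MSA-2 library these values were 65.9, 47.3, 40.1 and 38.4 CPM. NK/T-like cells, which should lack C1q, served as the background class. There 21.0% and 6.30% of thinned cells had a C1qa UMI, and the shares in Ptprc-low cells (18.0% and 5.47%) and fibroblast-like cells (19.4% and 5.89%) were no higher. Where the C1q UMIs of these classes came from was not tested. Higher untreated C1qa levels were found in the 363 cDC-like cells (594 CPM), the 27 pericyte-like cells (1064 CPM) and the unnamed cells (2390.0 CPM), with 44.4, 34.2 and 451 CPM after MSA-2. Median depths were 20255 and 19921 UMIs in Ptprc-low and 3292 and 4435 in NK/T-like cells, and without thinning the shares were 86.8% and 53.3% against 44.5% and 20.7%. C1qa stood to Apoe, another abundant macrophage RNA, at 28.5 UMIs per 100 in untreated macrophage-like cells, 28.6 in NK/T-like and 31.5 in Ptprc-low cells, but at 20.4 (18.4 to 22.7) in fibroblast-like cells. After MSA-2 it stood at 33.9 in macrophage-like, 39.4 in NK/T-like, 36.4 in Ptprc-low and 23.9 (21.6 to 26.3) in fibroblast-like cells. All 8 Ptprc-low clusters with at least 50 cells in each library had less C1qa after MSA-2, by log2 ratios from -2.03 to -1.66. In NK/T-like cells 6 of the 9 genes had at least 50 UMIs, of which 2 (C3 and C5ar1) were past 2-fold higher and 3 (the C1q chains) lower, against 3.95% and 6.73% of 9186 features. Its clusters disagreed: in 1 of them (662 and 73 cells) the summed chains were 430.4 and 669 CPM, a log2 ratio of 0.64 (0.34 to 0.92), while in the other 3 they were lower after MSA-2, by log2 ratios from -2.20 to -1.72, at 66.6 to 99.8 CPM. In Ptprc-low cells 3 of 9 genes were past 2-fold lower (the C1q chains) and 1 higher (Cfb), against 5.3% and 8.99% of 16092 features.

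Neutrophil-like cells of the MSA-2 library had 61.8 CPM of C1qa, and 80.5% of 1897 thinned cells without a C1q UMI. The 60 untreated cells had 2589 CPM of C1qa, 2393 of C1qb and 1516 of C1qc. These were uneven, since 8 of the 21 cells deep enough to thin had no C1q UMI and 8 had all 3 chains. The cluster led by Cstdc4, Gng11 and Rdh12 held 21 of the 60 cells and had 10267 CPM of the 3 chains. Without it the log2 ratio of the summed chains was -3.16, against -5.49 with it, and it was -2.14 when the libraries were clustered without integration. Apoe moved with C1q, at 8645 CPM in the untreated library and 173 CPM with MSA-2, and the part of RNA from other cells in this difference was not tested. Of the 7 genes with at least 50 UMIs, 3 were past 2-fold lower and 0 higher, in a class where 37.6% and 9.83% of 5942 features were past 2-fold and the median log2 ratio was -0.70.

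C3, the central component that both routes cleave, was a fibroblast gene. Its level was 999.8 CPM (961 to 1040.2) in untreated as against 1129.8 CPM (1109.8 to 1150.03) in MSA-2 fibroblast-like cells, a log2 ratio of 0.18 (0.11 to 0.24). By the mean of both libraries this was 12.6 times the level in macrophage-like cells, the next class. There C3 was 60.02 CPM in the untreated library and 109 CPM with MSA-2, a log2 ratio of 0.86 (0.71 to 1.002). Clusters disagreed on the direction: C3 was higher after MSA-2 by 1.73 in the Folr2 cluster (56.5 and 188 CPM) and lower by 0.97 in the cluster led by Tnfsf15, Tnfsf8 and Ppm1l (119.7 and 60.9 CPM). At untreated cluster sizes the log2 ratio of the class was 0.17. Monocyte-like cells had 86.3 and 74.2 CPM of C3, and their log2 ratio of -0.22 (-0.50 to 0.06) could not be told from 0. Neutrophil-like cells had 76.7 CPM (35.1 to 146, from 9 UMIs) and 81.7 CPM (74.0 to 89.9), and 10.2% of the thinned MSA-2 cells had a C3 UMI, above the 3.70% (1.79 to 6.71) in NK/T-like cells.

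In Ptprc-low cells C3 stood at 13.3 and 21.5 CPM, with a UMI in 2.13% and 3.73% of thinned cells. NK/T-like cells had 0.49% (0.20 to 0.998) and 3.70%. The MSA-2 share thus cannot be set apart from that of NK/T-like cells, while the untreated share was above theirs. Without thinning, MSA-2 Ptprc-low and NK/T-like cells, which differ in depth, had 0.497 and 0.0933 C3 UMIs per cell. C1qa was lower in Ptprc-low than in NK/T-like cells there (38.4 and 65.9 CPM), and the fibroblast marker Col3a1 was higher (765 and 126 CPM). The part of RNA from other cells in the C3 of Ptprc-low cells was not tested. The untreated Ptprc-low clusters spread from 2.25 CPM (4 UMIs, 86 cells) in the cluster led by Galnt13, Chrm3 and Sh3rf3 to 100.02 CPM (111 UMIs, 91 cells) in that led by Pcdh9, Ednra and Glis3, a range of 44.4-fold, whereas C1qa differed by 1.38-fold across the same clusters. In the MSA-2 library the range was 14.1 to 64.3 CPM. The highest value, in the cluster led by Csmd3, Aspn and Enpp2, stood above the NK/T-like interval of 11.4 to 24.7 CPM. C3 was higher after MSA-2 in 7 of the 8 clusters with at least 50 cells in each library and lower in the Pcdh9 cluster, with log2 ratios from -1.11 to 2.76. The libraries filled these clusters unequally: the Galnt13 cluster held 1.30% and 22.2% of the class, the Pcdh9 cluster 1.38% and 17.3%, and the cluster led by Csmd3, Aspn and Enpp2 28.8% and 6.40%.

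C4b, which encodes the mouse C4 of the classical and lectin routes, followed C3 in its cells. Fibroblast-like cells had 487 CPM (460 to 516) in the untreated library and 396 CPM (384 to 408) with MSA-2, a log2 ratio of -0.30 (-0.39 to -0.20). Macrophage-like cells had 38.8 and 44.2 CPM, and the log2 ratio of 0.19 (-0.02 to 0.40) could not be told from 0. At untreated cluster sizes it was -0.38, and C4b was higher in 2 and lower in 3 of the 5 clusters with at least 50 cells in each library. The level was highest in the Folr2 cluster, at 159 and 96.0 CPM, which held 87 of the 667 untreated UMIs of the class, while the larger Acsl1 cluster held 317 at 47.5 CPM. C4a is a near-identical copy of C4b, and reads shared by both genes could be lost or split in the authors' counting, so the levels of C4b are uncertain.

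Factor B was higher after MSA-2 in fibroblast-like, endothelial-like, macrophage-like and monocyte-like cells. Fibroblast-like cells had 565 CPM (535 to 595) of Cfb in the untreated library and 1294 CPM (1272 to 1315) with MSA-2, a log2 ratio of 1.20 (1.12 to 1.28). Per cell this was 6.87 and 19.9 UMIs. The share of thinned fibroblast-like cells with a Cfb UMI was 44.9% and 78.1%. Endothelial-like cells had 73.6 and 219 CPM, a log2 ratio of 1.57 (1.09 to 2.08) from 43 and 218 UMIs. Of the 9 genes, Cfb was the 1 past 2-fold higher in fibroblast-like cells, where 7.31% of 10526 features were, and the 3 C1q chains were past 2-fold lower with 7.55% of features, in a class whose C1qa shares were no higher than in NK/T-like cells. For all stromal cells the same 1 and 3 genes were past 2-fold, against 5.94% and 9.34% of 11103 features. In endothelial-like cells 3 genes had at least 50 UMIs, of which Cfb was past 2-fold higher and C1qa and C1qb lower, against 5.73% and 5.05% of 4851 features.

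Among myeloid cells Cfb differed most in the Ly6c2-type monocyte-like class, at 123 CPM in the untreated library and 302 CPM with MSA-2, a log2 ratio of 1.29 (1.12 to 1.46). Macrophage-like cells had 129 and 225 CPM, a log2 ratio of 0.80 (0.70 to 0.90). Cfb was higher in 4 of the 5 macrophage-like clusters with at least 50 cells in each library, in 3 outside counting error. Among the 4 were the Mmp12 cluster (69.0 and 259 CPM) and the Folr2 cluster (122 and 363 CPM). The Acsl1 cluster was lower within counting error, at 145 and 135 CPM. At untreated cluster sizes the log2 ratio of macrophage-like cells was 0.32, and in the Ly6i cluster of the monocyte-like class it was 0.47 (-0.29 to 1.15). Neutrophil-like cells had 33.7 CPM after MSA-2, and the untreated value of 42.6 CPM came from 5 UMIs. Ptprc-low cells had 5.98 and 18.5 CPM, with a UMI in 0.88% and 3.00% of thinned cells. NK/T-like cells had 0.56% and 2.22% (0.82 to 4.77), with 3.19 and 17.7 CPM. For the class as a whole the shares of both libraries and the MSA-2 level cannot be set apart from those of NK/T-like cells. The untreated level of 5.98 CPM (5.59 to 6.38) was above that of NK/T-like cells (1.92 to 4.98). After MSA-2, Ptprc-low and NK/T-like cells had 105 and 167 CPM of Apoe and 141 and 270 CPM of S100a8. The fibroblast marker Col1a1 had 67.9 and 75.1 CPM there, and Col3a1 went the other way, at 765 and 126 CPM. The part of RNA from other cells in the Cfb of Ptprc-low cells was not tested. Untreated Ptprc-low clusters ranged from 1.69 to 26.1 CPM, and those led by Prickle1, Ptn and Tnc (26.1 CPM) and by Pcdh9, Ednra and Glis3 (24.3 CPM) stood above the NK/T-like level. In the MSA-2 library the 8 clusters with at least 50 cells ranged from 14.3 to 39.2 CPM, and that led by Csmd3, Aspn and Enpp2 (39.2 CPM) stood above the NK/T-like interval of 11.9 to 25.4 CPM. Cfb overlaps the readthrough gene Gm20547 on its own strand, and UMIs of both cannot be told apart.

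**Figure D4:**
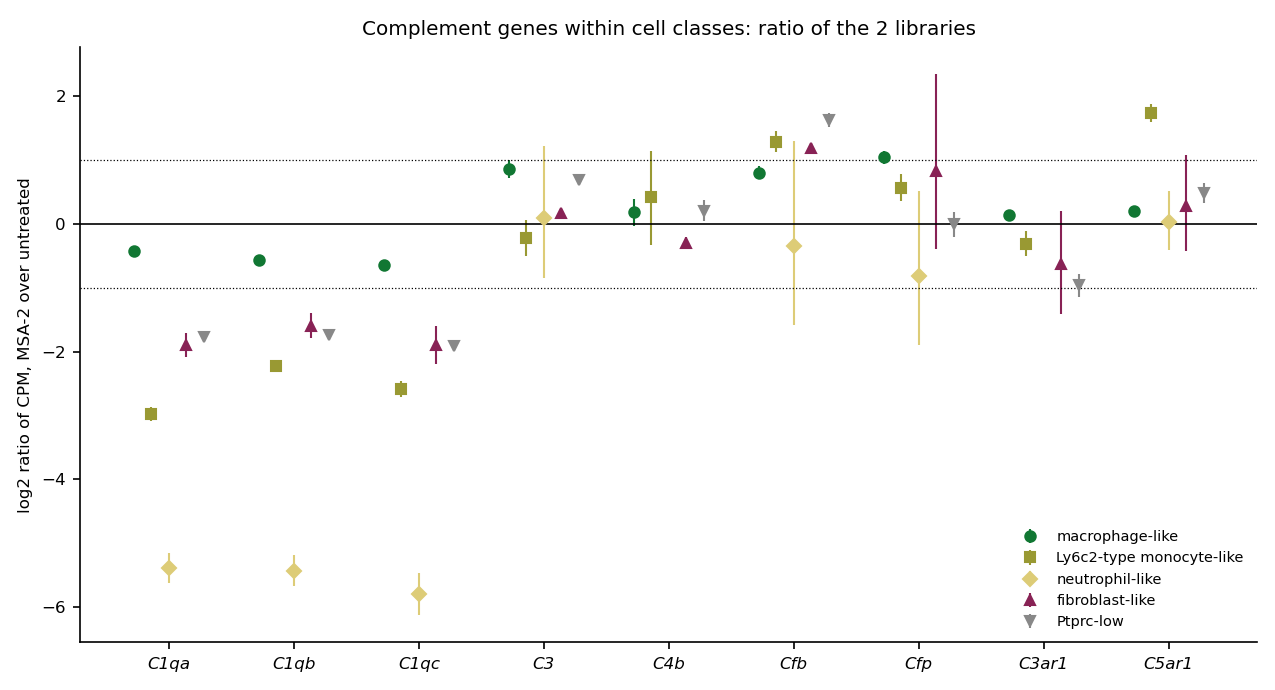
Log2 ratio of CPM, MSA-2 over untreated, for each complement gene in 5 cell classes, with exact 95% intervals for counting error and dotted lines at 2-fold. Only values with 50 UMIs or more over both libraries are drawn. The C1q chains lie below 0 in all 5 classes, Cfb lies above 0 in 4, and the untreated neutrophil-like values rest on 60 cells.

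Cfp, properdin, was highest in macrophages, monocytes and dendritic cells. Macrophage-like cells had 111 CPM (106 to 116) in the untreated library and 230 CPM (218 to 242) with MSA-2, a log2 ratio of 1.05 (0.94 to 1.15). Monocyte-like cells had 100.5 and 149 CPM. Within the macrophages Cfp was higher after MSA-2 in 4 of 5 clusters, among them the Acsl1 cluster at 80.4 and 165 CPM and the Syngr1 cluster at 133 and 267 CPM. It was lower in the Mmp12 cluster, at 131 and 92.4 CPM. At untreated cluster sizes the log2 ratio was 0.78, short of 2-fold. The highest level was in the Folr2 cluster, 252 and 375 CPM. The cDC-like cells (conventional dendritic cells) had 147 CPM over 363 cells without MSA-2 and 170.2 CPM over 36 cells with it. Neutrophil-like cells had 59.6 CPM from 7 UMIs and 33.9 CPM (29.0 to 39.3), and 5.27% (4.31 to 6.37) of thinned MSA-2 cells had a Cfp UMI, against 0.37% (0.0094 to 2.05) in NK/T-like cells. Fibroblast-like and Ptprc-low cells had between 2.45 and 4.37 CPM in both libraries.

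The receptor for C3a, C3ar1, was highest in macrophage-like cells, at 303 CPM (294 to 311) in the untreated library and 333 CPM (318 to 348) with MSA-2, a log2 ratio of 0.14 (0.06 to 0.21). On thinned cells the shares with a UMI were 35.1% and 35.0%. Monocyte-like cells had 175 and 141 CPM, a log2 ratio of -0.31 (-0.50 to -0.11) that turned to between 0.03 and 0.12 under 5 of the alternatives. Neutrophil-like cells of the MSA-2 library had 3.94 CPM from 20 UMIs, with a UMI in 0.42% of thinned cells (0.18 to 0.83), against 0.37% (0.0094 to 2.05, 1 of 270 cells) in NK/T-like cells, so the shares cannot be set apart. In Ptprc-low cells the values of 4.80 and 2.46 CPM were at or below background by their shares, with a UMI in 0.79% and 0.37% of cells against 1.53% and 0.37% in NK/T-like cells.

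The receptor for C5a, C5ar1, was shared by neutrophil-like, macrophage-like and monocyte-like cells. The neutrophil-like level was 358 CPM (258 to 484, from 42 UMIs) in untreated as against 366 CPM (350 to 383, from 1860 UMIs) in MSA-2 cells. The log2 ratio of 0.03 (-0.41 to 0.51) stood against a median of -0.70 over the 5942 features of that class. S100a8 and S100a9 took 0.72% of the class's UMIs in the untreated library and 7.58% with MSA-2. With these genes and the C1q chains left out of the total the log2 ratio was 0.13. The value depends on the few untreated cells and on the scaling: without the cluster led by Cstdc4, Gng11 and Rdh12 it was -0.72, and with TMM factors, which scale on the bulk of genes, 1.17. Macrophage-like cells had 292 and 338 CPM of C5ar1. Among classes with at least 50 UMIs the largest difference was in the monocyte-like class, with 157 CPM (145 to 169) in the untreated library and 523 CPM (492 to 555) with MSA-2, a log2 ratio of 1.74 (1.60 to 1.88). It was also seen within the Ly6i cluster, at 158 and 447 CPM, which held 29 MSA-2 cells. The share of thinned monocyte-like cells with a C5ar1 UMI was 19.9% and 49.7%. The neutrophil marker S100a8 differed the same way, with 1.14 and 1304 CPM in monocyte-like and 2.503 and 379 CPM in macrophage-like cells. In NK/T-like cells it had 0.34 and 270.4 CPM, and C5ar1 had 5.21 and 12.8 CPM. Csf3r, another neutrophil marker, had 34.6 and 37.6 CPM in monocyte-like and 44.7 and 46.1 CPM in macrophage-like cells. The part of neutrophil RNA in the C5ar1 levels was not tested. In the untreated library the intervals of neutrophil-like and macrophage-like cells overlapped and monocyte-like cells were lowest. In the MSA-2 library monocyte-like cells were highest, and the other two classes again overlapped.

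The share of a gene's UMIs that each class held combines its level and the size of the class. Macrophage-like cells held 75.4% of all C1q UMIs in the untreated library and 76.1% with MSA-2, although they were 20.3% and 8.11% of cells. Fibroblast-like cells held 40.9% and 71.3% of C3, 47.3% and 79.5% of C4b, and 26.3% and 70.6% of Cfb, although they were 1.51% and 5.22% of cells. For Cfb the untreated library was led by macrophage-like cells, with 42.1% of UMIs. Neutrophil-like cells held 0.61% of C5ar1 UMIs in the untreated library and 26.8% with MSA-2, while the share of macrophage-like cells went from 73.2% to 28.7%.

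**Figure D5:**
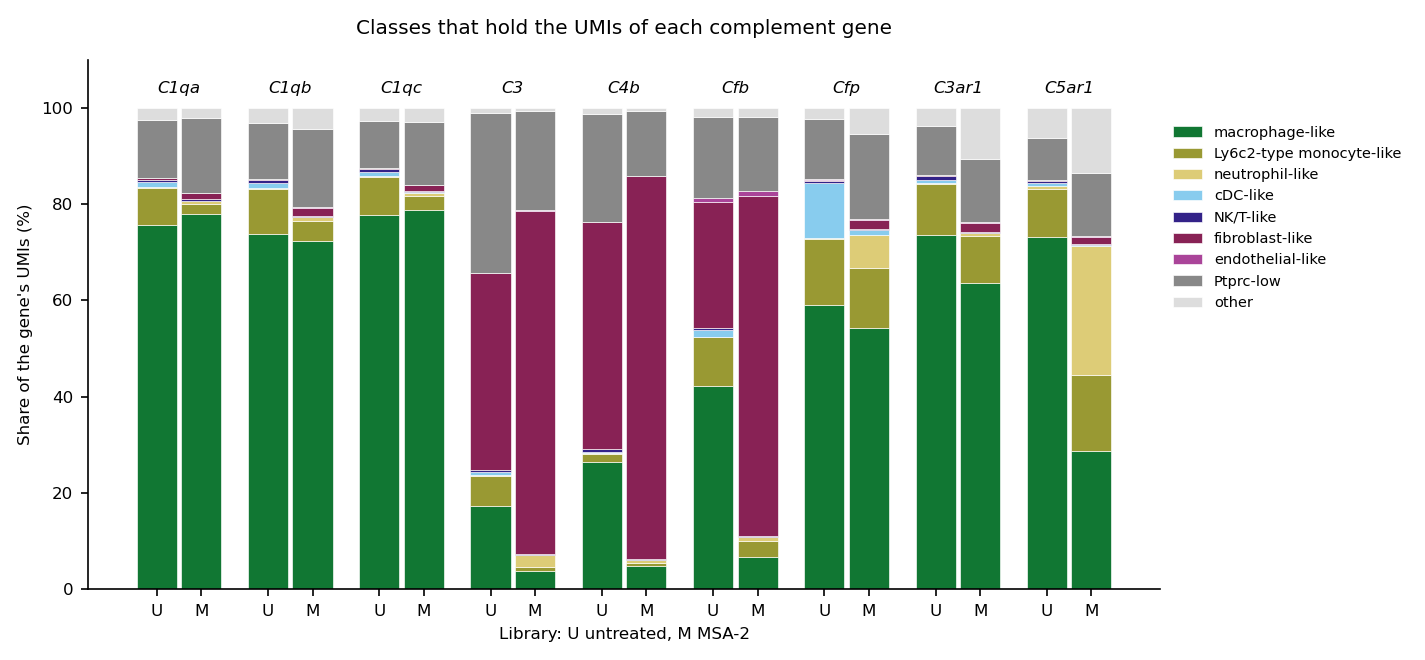
Share of each complement gene's UMIs (%) that falls to each cell class in the untreated (U) and MSA-2 (M) library, with every bar adding up to all UMIs of that gene in the kept cells. Fibroblast-like cells hold most C3, C4b and Cfb UMIs after MSA-2, and neutrophil-like cells take up 26.8% of C5ar1.

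Over all cells, the untreated library had 28410 C1q UMIs per 1000 cells and the MSA-2 library 6709, a log2 ratio of -2.08. With untreated levels per cell and only the class sizes of the MSA-2 library, this ratio would be -0.74. For C3 the observed ratio was 1.503 and that of class sizes alone 0.96, for C4b 1.08 and 1.02, and for Cfb 1.90 and 0.47. Class sizes alone would have lowered Cfp by 0.79, and the observed ratio was -0.38. For C3ar1 the values were -1.20 and -0.91, and for C5ar1 0.01 and -0.34. Of the 9 genes, 3 were past 2-fold higher over all cells (C3, C4b and Cfb) and 4 lower (the C1q chains and C3ar1), against 9.42% and 7.6% of 17404 features.

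The other genes of the pathway were taken from a list of 51 symbols, of which 50 were among the features. In macrophage-like cells 17 of the 50 had at least 50 UMIs, and 6 were past 2-fold higher and 1 lower, against 6.31% and 5.11% of 11198 features. The median log2 ratio of the 17 was 0.62, and that of all features -0.14. Fcna, a ficolin that starts the lectin route, had 5.53 and 38.7 CPM, and Serping1, the C1 inhibitor, 4.07 and 24.1 CPM. Cd55, a membrane regulator that speeds the decay of convertases, had 0.76 and 14.2 CPM, and C6, part of the lytic complex, 2.04 and 6.44 CPM. Vsig4, a macrophage receptor for C3 fragments, had 0 UMIs in the untreated library and 71 with MSA-2, at least 68.9-fold higher against a limit of 3 counts in the untreated library. Itgax, a subunit of complement receptor 4, was lower in the class, at 31.8 and 14.2 CPM, but clusters differed, with 32.6 and 32.4 CPM in the Acsl1 cluster and 45.2 and 14.9 CPM in the Tnfsf15 cluster.

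Most UMIs of Fcna, C6, Vsig4 and, after MSA-2, Cd55 came from the Folr2 cluster, which was larger in that library. Of the Fcna UMIs it held 83 of 95 (untreated) and 216 of 228 (MSA-2), and its own Fcna level was 151 and 130 CPM. C6 in that cluster was 51.1 and 22.2 CPM. It also held 69 of the 71 Vsig4 UMIs and 82 of the 84 MSA-2 UMIs of Cd55. Within the cluster Vsig4 was at 0 UMIs in the untreated library and 41.4 CPM in the MSA-2 library, and Cd55 at 10.9 and 49.2 CPM. Serping1 was higher in all 5 clusters with at least 50 cells in each library, for example at 2.85 and 20.4 CPM in the Acsl1 cluster. It had like levels in NK/T-like cells, at 4.37 and 26.2 CPM. In NK/T-like cells 7 of the 50 genes had at least 50 UMIs. Of these 2 (Serping1 and Cd55) were past 2-fold higher and 1 (Itgax) lower, against 3.95% and 6.73% of 9186 features. Cd55 had 15.1 and 30.5 CPM there.

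In fibroblast-like cells 16 of the 50 genes had at least 50 UMIs, with 1 past 2-fold higher and 3 lower, against 7.31% and 7.55% of 10526 features, and a median log2 ratio of -0.25 against -0.13 for all features. Serping1 was the highest of the list, at 2015 and 1933 CPM. C1s1 and C1ra, the proteases of the C1 complex, had 353 and 206 CPM and 189 and 185 CPM. C2, the classical route's counterpart of factor B, had 110 and 161 CPM, a log2 ratio of 0.55 (0.36 to 0.74). The 3 genes past 2-fold lower were regulators: Cd55 (71.6 and 26.0 CPM), Cd59a (25.8 and 1.95 CPM) and Csmd1 (66.7 and 21.3 CPM). The gene past 2-fold higher was Itgam, a myeloid integrin, from 4 and 49 UMIs.

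Ptprc-low cells had 27 of the 50 genes at 50 UMIs or more, of which 7 were past 2-fold higher and 5 lower, against 8.99% and 5.3% of 16092 features. Their median log2 ratio was 0.31, and that of all features 0.05. Masp1, a protease of the lectin route, had 4.45 and 25.02 CPM, against 0.84 and 2.44 CPM (5 and 4 UMIs) in NK/T-like cells. Serping1 had 3.91 and 20.3 CPM, no higher than in NK/T-like cells. Clu, a fluid-phase inhibitor of lysis, had 16.7 and 6.58 CPM. Neutrophil-like cells had 6 of the 50 genes at that depth, with 1 past 2-fold higher and 1 lower, against 9.83% and 37.6% of 5942 features. Itgam, a subunit of complement receptor 3, had 85.2 CPM from 10 UMIs and 177 CPM, and C1qbp, a mitochondrial protein that binds C1q, 170.4 CPM from 20 UMIs and 71.8 CPM. In monocyte-like cells 7 of the 50 genes reached that depth, of which 1 (Serping1) was past 2-fold higher and 1 (Itgax) lower, where 9.74% and 13.2% of all 8113 features were. From 10 UMIs on, 5 of 16 were past 2-fold higher and 1 lower, with no share of all features at that depth to set beside them. The median log2 ratio was then 0.42 for the 16 genes and -0.30 for all features. In endothelial-like cells 5 of the 50 genes had at least 50 UMIs, with 0 past 2-fold, against 5.73% and 5.05% of 4851 features.

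Genes were compared by Pearson correlation of log2(CPM + 10) over 53 points, each a cluster in 1 library with at least 50 cells. The other members were left out of the rankings that follow. Among 14422 genes the C1q chains were then most like Apoe and Ms4a7, at 0.98 to 0.99. Among the members, the chains correlated with each other at 0.994 to 0.997, and C3 with Cfb at 0.82. C3 was most like Cxcl14 (0.82), Clmp (0.81) and Mgst1 (0.80), C4b like Gas6 (0.92), Creb3l3 (0.90) and Igf1 (0.89), and Cfb like Pnp (0.85), Clmp (0.81) and Gda (0.80). Cfp was most like Cd68 (0.95), Fcgr1 (0.94) and Ms4a6c (0.93), C3ar1 like Clec4a1, Ccl12 and Ms4a7 (all 0.97), and C5ar1 like Itgam, Pla2g7 and Cybb (all 0.97). These are descriptions across clusters that share 2 libraries, and they carry no test.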

How the data were processed

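The authors deposited whole-number counts of UMIs per gene and cell barcode for 2 libraries (10x 3′ chemistry, mm10). The file header names Cell Ranger 7.0.1, and the submitters' processing notes Cell Ranger 7.0.0 and Seurat 4.3.0. The deposited counts summed to 198135335 (untreated) and 204387165 (MSA-2). Barcodes needed 500 or more genes and no more than 20% of UMIs from mitochondrial genes (14039 of 14386 and 13963 of 14617 passed), and 705 and 570 doublets called by Scrublet were removed. Cells were clustered in Seurat 5.3.0 (reciprocal PCA, 30 dimensions, resolution 1) on variable genes without complement or interferon-stimulated genes, and clusters were named from marker lists, so names are rebuilt here. Counts were summed per class and library and given as CPM, with exact Poisson or binomial intervals. With 1 library per group no test was run. A gene was counted as past 2-fold only with 50 UMIs or more over both libraries, and a class at 0 was given a limit of 3 counts. Shares of cells were taken after thinning to 1500 UMIs. All 9 genes were named. Other pathway genes were named mainly where past 2-fold, and Serping1, C1s1, C1ra and C2 in fibroblast-like cells after their values were seen. Some genes of the list are not reported here by name. The members and lists were chosen with earlier results of these data known. Scripts were tested on simulated data. Alternatives covered the cell filter, doublets, integration, variable genes, resolution, scaling, cell weights, the lowest class level taken off, thinning and thresholds, and 4 were chosen after seeing the data.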

Additional observations from a re-analysis of the deposited data

Results flagged for a closer look

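For 2 genes the difference between the libraries had opposite signs in different classes, each outside counting error, and the difference itself was not tested. C4b had a log2 ratio of -0.30 in fibroblast-like and 0.21 in Ptprc-low cells, 0.51 apart, and the Ptprc-low levels of 3.82 and 4.42 CPM were close to those of NK/T-like cells, 2.35 and 4.88 CPM. C3ar1 had a log2 ratio of 0.14 in macrophage-like and -0.96 in Ptprc-low cells, 1.10 apart, and the Ptprc-low level was no higher than in NK/T-like cells.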

How the results depend on the processing

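No paired analysis was possible because each group was 1 library. The summed C1q chains were lower in macrophage-like cells under every alternative run, with log2 ratios of -0.66 (interferon-stimulated genes among variable genes), -0.64 (doublets kept), -0.64 (equal weight per cell), -0.62 (no cell filter), -0.60 (stricter cell filter), -0.59 (resolution 2), -0.51 (lowest class level taken off), -0.50 (resolution 0.5), -0.49 (complement genes among variable genes), -0.47 (TMM), -0.43 (no integration) and -0.25 (untreated cluster sizes). The lowest class level is a gene's mean UMIs per cell in the lowest named class of at least 100 cells in a library. For C1q with MSA-2 this was 0.28 UMIs per cell, in neutrophil-like cells, while Ptprc-low cells held 1.95. Taking it off is therefore not a full correction for free RNA. C5ar1 in neutrophil-like cells had no stable direction: -0.72 without the cluster highest in C1q, -0.67 with complement genes among variable genes, -0.60 with interferon-stimulated genes among them, -0.58 without integration, 1.17 with TMM and 1.49 with the stricter cell filter. The summed C1q chains of monocyte-like cells (-2.56) stayed lower, at -0.97 without the cell filter, -1.23 with complement genes among variable genes, -1.25 at resolution 0.5 and -1.85 with the stricter cell filter, and those of neutrophil-like cells (-5.49) at -2.14 without integration and -2.23 with the stricter cell filter. C3ar1 in monocyte-like cells (-0.31) changed sign, to 0.11 without the cell filter, 0.03 without integration, 0.09 with complement genes among variable genes, 0.07 at resolution 0.5 and 0.12 at resolution 2. C3 in neutrophil-like cells (0.09) was 1.23 with TMM and -1.03 with the lowest class level taken off. In fibroblast-like cells Cfb was 1.39 with TMM, 1.34 with equal weight per cell and 1.30 without integration, C3 0.37, 0.36 and 0.28, and C4b -0.10, -0.15 and -0.19. In macrophage-like cells Cfp was 0.78 at untreated cluster sizes, and C3ar1 0.056 with interferon-stimulated genes among variable genes. TMM shifted all log2 ratios by 1.14 in neutrophil-like, 0.20 in fibroblast-like, 0.26 in stromal, 0.19 in monocyte-like, 0.05 in macrophage-like and -0.07 in Ptprc-low cells. From 10 UMIs on, the other complement genes past 2-fold higher were 11 of 39 in Ptprc-low cells (7 of 27 from 50 UMIs). They were 10 of 25 in macrophage-like (6 of 17) and 4 of 31 in stromal cells (1 of 18). Those lower were 10 of 15 in neutrophil-like cells (1 of 6), where the median log2 ratio of all features from 10 UMIs on was -1.27. Past 1.5-fold, 12 of 27 were higher in Ptprc-low, 9 of 17 in macrophage-like and 3 of 18 in stromal cells. In fibroblast-like cells 3 of 16 were higher, and in monocyte-like cells 2 of 7. Lower were 8 of 18 in stromal, 6 of 16 in fibroblast-like and 3 of 17 in macrophage-like cells. In neutrophil-like cells 2 of 6 were lower, in monocyte-like cells 2 of 7 and in endothelial-like cells 2 of 5. Of the 9 genes, 3 were higher (1 past 2-fold) and 1 lower (0) in macrophage-like cells past 1.5-fold, 2 were higher in Ptprc-low (1) and in fibroblast-like cells (1), and from 10 UMIs on 4 were higher in NK/T-like (2) and 3 in endothelial-like cells (1), and 3 lower in the latter (2). Among the other genes 5 were then higher in monocyte-like cells (1). No share of all features is given at 1.5-fold or from 10 UMIs on, so these counts cannot be set against a background. The cause of these shifts was not tested. Leaving out replicates was not possible with 1 library per group, and the 60 untreated neutrophil-like cells limit that class.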

Other observations

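The unnamed cluster led by Ifnb1, Cacna1d and Pde7b held 473 untreated and 792 MSA-2 cells, and its summed C1q chains were 7551 and 1719 CPM. Among cDC-like cells the C1q chains lay mostly in the cluster led by Mgl2, H2-Oa and Klrd1, at 2150 CPM in 241 untreated cells, against 381 and 304 CPM in the clusters led by Il12b and by Plet1. C1qa stood at 51.3 UMIs per 100 Apoe UMIs in untreated cDC-like cells, against 28.5 in macrophage-like cells.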
